A study of Mus musculus with 28 samples.

Results

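Night was compared with day in the lateral ventricle choroid plexus of aged J20-positive (J20+) male mice, by RNA sequencing of 4 libraries from zeitgeber time (ZT) 18 and 4 from ZT 6. These 8 of the series' 28 libraries were chosen by their labelled genotype and time, and no measured value was used to choose them. The J20+ night and J20+ day mice were 12 to 14 months old. ZT 18 is 6 h after lights off, in the dark phase when mice are mostly active, and ZT 6 is 6 h after lights on. The J20 line expresses human APP, the precursor of amyloid-beta, in a form with inherited Alzheimer's disease mutations. The platelet-derived growth factor B promoter drives this transgene, mainly in neurons. All animals were perfused with buffered saline before dissection, and poly(A) RNA was sequenced. Wild-type littermates of the same age, at night and at day (J20-, 4 libraries each), and wild-type C57BL/6 mice of 3 to 4 months, at night and at day (4 libraries each), are used for comparison. The aged libraries form labelled batch 2 and the young ones batch 1.

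The choroid plexus is a sheet of epithelium around a vascular stroma, and it secretes cerebrospinal fluid (CSF) into the brain ventricles. Like most tissues it runs a circadian clock. BMAL1 (gene Arntl) and CLOCK drive the period and cryptochrome genes and the genes of the nuclear receptors REV-ERB, and period and cryptochrome proteins feed back to block them. REV-ERB receptors repress Arntl through the same DNA elements at which ROR receptors activate it, and the factors DBP, TEF and HLF, opposed by NFIL3, pass the rhythm on to further genes. Daily swings in feeding, body temperature and glucocorticoid hormone reach many tissues beside the clock itself.

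Total counts ran from 15.5M to 30.9M in J20+ night libraries and from 19.6M to 43.9M in J20+ day libraries. Markers of choroid epithelium were high in all 8, with summed levels of 24000 to 48320 CPM (read counts scaled to library size) in J20+ night and 32350 to 50240 CPM in J20+ day libraries, and none of the 14 markers was at 0. The labelled tissue therefore had its defining markers. A library from each time stood apart. J20+ night library 2 had the lowest choroid sum, 24000 CPM, where the other night libraries had 46620 to 48320 CPM. Its neuron markers summed to 423 CPM, against 32.5 to 80.1 CPM in the other night libraries. It also had the shallowest depth. Its log2 counts, relative to each gene's mean over the 16 aged libraries, rose with transcript GC content by 0.47 per 10 percentage points. On this relative scale the other night libraries had -0.25 to -0.20. J20+ day library 1 had the highest neuron sum, 936 CPM, and high astrocyte (2494 CPM), endothelium (473 CPM) and fibroblast (756 CPM) sums. Results are therefore also given without night library 2 and day library 1. J20+ day library 2 stays in those fits. Its neuron, oligodendrocyte and astrocyte markers together summed to 2388 CPM, against 2461 CPM in night library 2. Its oligodendrocyte sum, 1112 CPM, was the highest of the 8 libraries. App, the mouse gene, had 495 to 2120 CPM in J20+ night, 1485 to 2252 CPM in J20+ day, 765 to 1440 CPM in wild-type night and 1760 to 1996 CPM in wild-type day libraries of the same age. Reads of a human transgene need not be counted under the mouse gene, so these levels do not check the genotype labels. Zbtb20, the gene at which the J20 transgene is known to have inserted, had 3.05 to 20.4 CPM in J20+ night and 3.36 to 19.9 CPM in J20+ day libraries, against 2.19 to 3.07 CPM in wild-type night and 2.07 to 35.7 CPM in wild-type day libraries, so it did not separate the genotypes either.

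**Figure D1:**
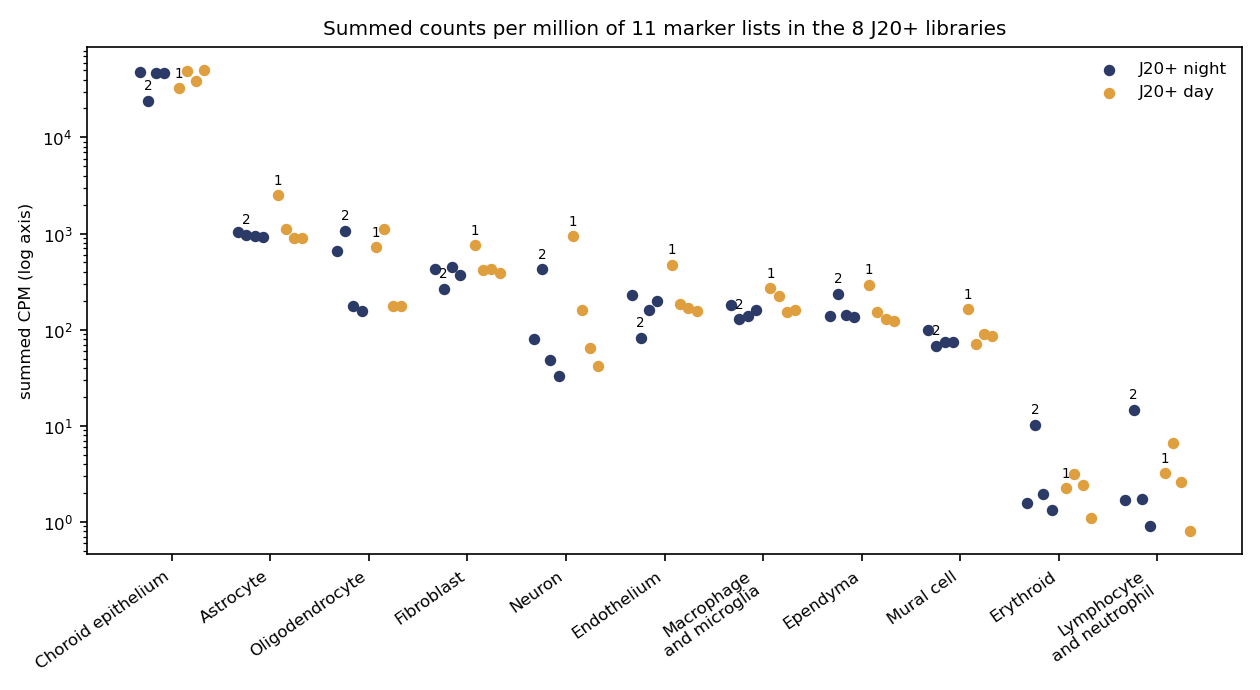
Summed CPM (log axis) of 11 lists of cell type markers in each J20+ library, night (dark points) left of day (light points). The numbers mark night library 2 and day library 1, which had neuron marker sums of 423 and 936 CPM.

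With edgeR few genes separated night from day beyond the spread of the libraries, and 5 of its 7 calls were clock genes. Of the calls of other tools the clock was a smaller share, 6 of 79 with DESeq2 and 8 of 274 with limma-voom. Of 16065 genes tested, 7 (0.0436%) were called at an adjusted p under 0.05 by edgeR's quasi-likelihood test with Benjamini-Hochberg adjustment, 5 higher at night (0.0311%) and 2 lower (0.0124%). Without a correction for the number of genes, 701 genes (4.36%) were higher and 490 (3.05%) lower at a p under 0.05. In 389 genes (2.42%) the 4 night libraries lay above the 4 day libraries, and in 191 (1.19%) they lay below them. The median log2 fold change of all genes was 0.02. In bulk tissue, fewer cells of a type and less RNA per cell cannot be told apart.

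Among 26 clock genes tested, 3 rose, 2 fell and 21 did not pass with edgeR. REV-ERB, activator, repressor and output genes are taken in turn.

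Nr1d1, the gene of REV-ERB alpha (Entrez 217166, chromosome 11, 98767932 to 98775377 on GRCm38.p6), was lower at night. It had 22.02, 35.2, 23.1 and 13.9 CPM at J20+ night, against 111, 97.8, 106 and 97.1 CPM at J20+ day. No night library came near the day range. Nr1d1 fell by 2.13 ± 0.24 on the log2 scale (SE, 4 libraries against 4), a level 4.38-fold higher at day (edgeR adjusted p = 0.00194). Its end overlaps Thra, a thyroid hormone receptor gene on the opposite strand (-0.42 ± 0.25), and the strand setting of the counting was not given. Its paralog Nr1d2 (REV-ERB beta) had 215, 72.5, 70.3 and 136 CPM at J20+ night and 164, 210.3, 271 and 296 CPM at J20+ day. Night library 1 lay inside the day range. The difference of -0.93 ± 0.31 did not pass with edgeR (adjusted p = 0.652) or DESeq2 (0.179) and passed with limma-voom (0.028).

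Arntl itself, the gene REV-ERB receptors repress, had 11.5, 19.5, 46.1 and 27.01 CPM at J20+ night, against 15.5, 6.57, 8.95 and 5.72 CPM at J20+ day. Night library 1 lay below day library 1, and the log2 fold change of 1.5 ± 0.37 did not pass with edgeR (adjusted p = 0.438) and passed with DESeq2 (0.0467) and limma-voom (0.0188). Without night library 2 and day library 1 it was 1.99 ± 0.38 (adjusted p = 0.175). Clock (0.21 ± 0.49) and its paralog Npas2 (0.46 ± 0.28) did not pass either, nor did the ROR receptor genes Rora (-0.26 ± 0.79) and Rorb (-1.64 ± 0.96) or the Arntl paralog Arntl2 (-0.28 ± 0.54).

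Of the repressors, Cry1 (Entrez 12952, chromosome 10, 85131700 to 85185054), a cryptochrome that blocks BMAL1 and CLOCK, rose 2.52-fold. Its levels were 50.7, 28.4, 57.0 and 62.2 CPM at J20+ night, against 17.2, 16.3, 22.8 and 22.3 CPM at J20+ day. Night library 2 was the lowest of the night libraries and still lay above the day range. The log2 fold change was 1.34 ± 0.22 (adjusted p = 0.0451) and, without night library 2 and day library 1, 1.47 ± 0.17 (adjusted p = 0.00388). Cry2, the second cryptochrome gene, had a log2 fold change of 0.05 ± 0.14.

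Per2, a period gene, had 104, 357, 55.7 and 104 CPM at J20+ night, against 36.4, 71.6, 42.7 and 52.4 CPM at J20+ day. Night library 2 stood far above the rest and night library 3 lay inside the day range. Its log2 fold change of 1.61 ± 0.45 did not pass (adjusted p = 0.521), and it was 0.66 ± 0.28 without the 2 libraries. Per1 behaved alike, at 0.52 ± 0.30 with them and 0.01 ± 0.24 without them, and its highest level, 168 CPM, was again in night library 2. Per3 (-0.16 ± 0.32) and Ciart (-0.79 ± 0.47), a repressor of BMAL1 and CLOCK, did not pass. For the repressor gene Bhlhe41 all 4 night libraries (3.68 to 9.23 CPM) lay below the day libraries (10.85 to 18.01 CPM). Its -0.97 ± 0.31 did not pass with edgeR (adjusted p = 0.645) or DESeq2 (0.146) and passed with limma-voom (0.00589). Bhlhe40, Csnk1d, Csnk1e, Fbxl21 and Timeless, of the repressor list, had log2 fold changes of -0.39 to 0.35, and none passed.

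Among the output factors, Nfil3 (Entrez 18030, chromosome 13, 52967209 to 52982878) rose 3.18-fold. It had 13.3, 29.9, 41.1 and 29.5 CPM at J20+ night, against 10.6, 8.78, 8.41 and 7.98 CPM at J20+ day. Night library 1 was closest to the day range. Its log2 fold change was 1.67 ± 0.26 (adjusted p = 0.0451). Dbp (Entrez 13170, chromosome 7, 45705100 to 45710203), whose protein acts at the sites NFIL3 blocks, fell. It had 26.3, 16.8, 11.3 and 12.6 CPM at J20+ night and 37.5, 60.2, 53.1 and 65.2 CPM at J20+ day, with no overlap. The log2 fold change was -1.69 ± 0.27, which is 3.23-fold higher at day (adjusted p = 0.0451). Tef (-0.02 ± 0.20) and Hlf (-0.33 ± 0.25), the other factors of the Dbp family, did not pass.

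**Figure D2:**
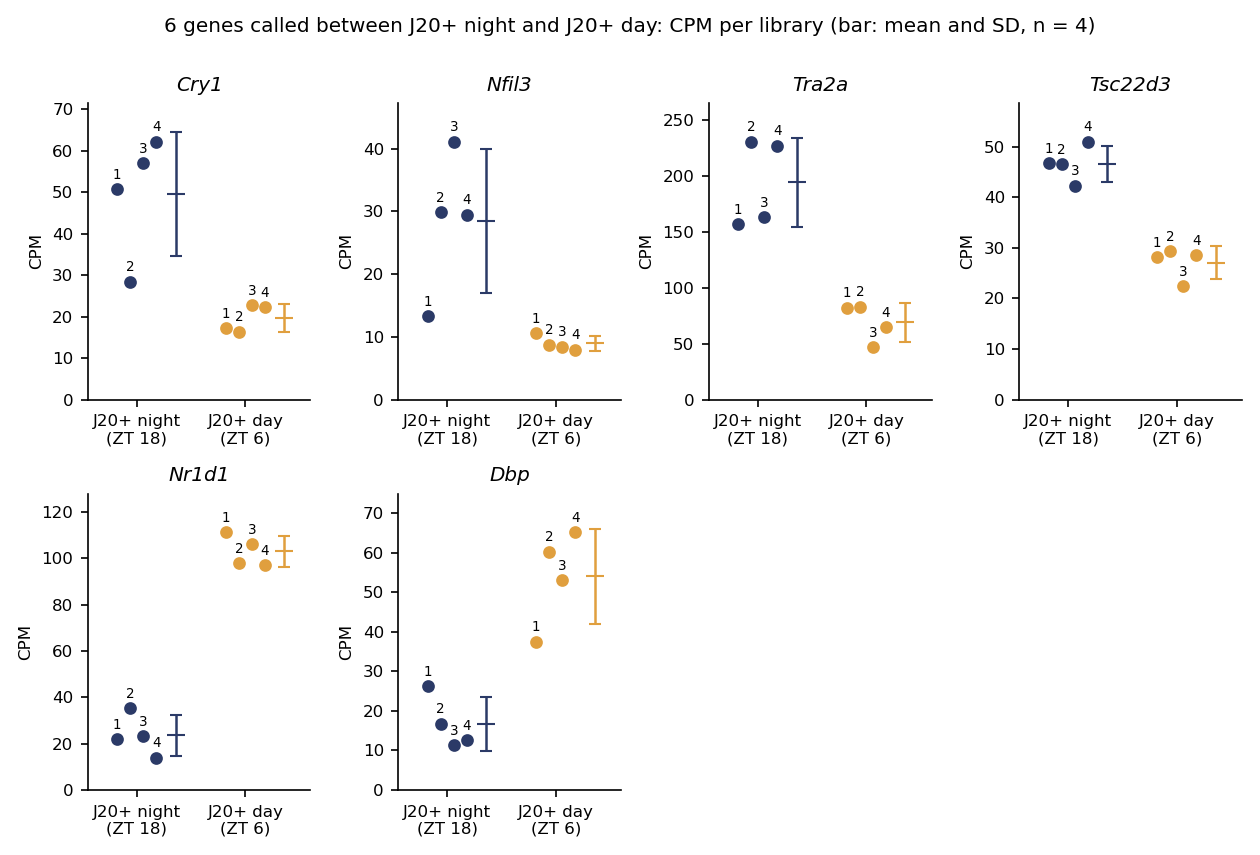
CPM of 6 called genes in each J20+ library, night (ZT 18) left of day (ZT 6), with library numbers, and the mean with its SD (n = 4). Cry1, Nfil3, Tra2a and Tsc22d3 lay higher and Nr1d1 and Dbp lower in every night library than in every day library.

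The start regions of Cry1 and Nfil3, called by edgeR, and of Arntl, which it did not call, held a textbook clock element. They are shown because clock genes made up most of edgeR's calls. Windows of 250 bases before to 50 after the start were taken from RefSeq (GRCm38.p6) and searched on both strands for the E-box CACGTG bound by BMAL1 and CLOCK, the ROR and REV-ERB element TAGGTCA, the D-box TTATGTAA or TTACGTAA bound by DBP and NFIL3, the cAMP element TGACGTCA and the ER stress element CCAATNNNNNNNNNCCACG. Capitals mark the matched letters, 5′ to 3′ on the gene's strand. The Cry1 window (chr10:85185005-85185304, minus strand) held an E-box. The Nfil3 window (chr13:52980990-52981289, minus strand) and a window of Arntl (chr7:113207261-113207560, plus strand) held the ROR and REV-ERB element, in Nfil3 on the opposite strand.
Cry1: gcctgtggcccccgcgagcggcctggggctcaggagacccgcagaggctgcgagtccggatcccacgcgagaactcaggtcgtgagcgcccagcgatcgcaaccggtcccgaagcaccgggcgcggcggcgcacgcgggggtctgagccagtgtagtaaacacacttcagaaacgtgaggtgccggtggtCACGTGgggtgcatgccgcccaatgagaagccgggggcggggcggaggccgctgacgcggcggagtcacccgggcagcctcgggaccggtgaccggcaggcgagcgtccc
Nfil3: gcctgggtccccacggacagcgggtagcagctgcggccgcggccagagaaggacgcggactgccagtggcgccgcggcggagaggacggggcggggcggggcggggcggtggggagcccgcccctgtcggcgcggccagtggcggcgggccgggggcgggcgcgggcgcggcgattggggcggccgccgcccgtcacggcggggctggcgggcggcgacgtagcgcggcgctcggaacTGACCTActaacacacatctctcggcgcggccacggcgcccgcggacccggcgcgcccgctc
Arntl: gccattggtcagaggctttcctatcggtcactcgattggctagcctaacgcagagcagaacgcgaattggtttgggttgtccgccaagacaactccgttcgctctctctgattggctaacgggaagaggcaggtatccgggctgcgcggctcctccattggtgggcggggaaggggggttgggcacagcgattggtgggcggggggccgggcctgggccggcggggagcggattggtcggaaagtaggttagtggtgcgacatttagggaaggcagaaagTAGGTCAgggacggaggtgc
Of 32851 mouse windows of the same length, 7.15% held the E-box, 2.61% the ROR and REV-ERB element and 1.06% the D-box. Among windows of the tested genes the shares were 9.29%, 1.78% and 0.763% in the same order. Of 12242 tested genes with a window, 11.1%, 2.2% and 0.92% held them in any window. The windows of Nr1d1, Dbp and Tsc22d3 and the other window of Arntl held none of the searched letters. A match describes the sequence and does not show binding.

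Outside the clock, Tra2a and Tsc22d3 were called. Tra2a (Entrez 101214, chromosome 6, 49243921 to 49264248) encodes a splicing factor whose own transcript is alternatively spliced. It had 157, 231, 163 and 227 CPM at J20+ night, against 82.2, 83.2, 46.7 and 64.5 CPM at J20+ day. The groups did not overlap, and Tra2a rose 2.81-fold, by 1.49 ± 0.22 (adjusted p = 0.0451). Its start window (chr6:49264003-49264302, minus strand, RefSeq GRCm38.p6) held the cAMP element, in capitals, which 1.79% of all windows and 2.82% of the windows of tested genes held.
Tra2a: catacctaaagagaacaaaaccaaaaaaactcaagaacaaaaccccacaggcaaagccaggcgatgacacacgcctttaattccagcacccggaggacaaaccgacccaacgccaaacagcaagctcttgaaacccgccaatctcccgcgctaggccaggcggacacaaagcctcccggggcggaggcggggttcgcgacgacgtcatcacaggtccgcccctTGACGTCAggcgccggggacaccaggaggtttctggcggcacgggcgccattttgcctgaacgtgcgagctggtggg

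Tsc22d3 (Entrez 14605, chromosome X, 140539528 to 140600522), also called Gilz, is a gene that glucocorticoids induce. It had 46.8, 46.5, 42.3 and 51.0 CPM at J20+ night and 28.1, 29.3, 22.4 and 28.5 CPM at J20+ day. Both groups were tight and did not overlap. Tsc22d3 rose 1.72-fold, by 0.78 ± 0.13 (adjusted p = 0.0451). In the list of 27 glucocorticoid response genes it was the only one that edgeR called, and the list's median was 0.04. Sult1a1, a sulfotransferase gene of that list, had 46.0, 53.6, 51.2 and 45.8 CPM at J20+ night against 23.1, 24.2, 29.3 and 22.6 CPM at J20+ day, without overlap. Its log2 fold change of 0.99 ± 0.17 missed edgeR's threshold (adjusted p = 0.0762) and passed with DESeq2 (8.15e-05) and limma-voom (0.00126). The well-known targets Fkbp5 (0.27 ± 0.23), Sgk1 (-0.05 ± 0.24) and Klf9 (-0.36 ± 0.42) were called by none of these tools.

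The calls near the threshold depended on the fit. Of 20 alternative fits, Nr1d1 was called in 19. Cry1 was called in 9, Nfil3 in 6, Tra2a and Dbp in 4 each and Tsc22d3 in 3. In the fit of the 8 libraries alone none of these passed (edgeR adjusted p = 0.987 each). The sign of each gene was the same in all 20. These genes were named for having no overlap between times, which nearly fixes the sign, so the signs test nothing. DESeq2 called 79 genes, 41 higher (0.255% of genes) and 38 lower (0.237%). Limma-voom with quality weights, which counts libraries that stand apart less, called 116 higher (0.722%) and 158 lower (0.984%). Without night library 2 and day library 1, edgeR called 5 genes, among them Cry1, Nr1d1 and the predicted gene Gm19522.

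Genes of protein folding in the endoplasmic reticulum (ER) leaned towards night without being called by edgeR. Of 31 genes of ER folding and the unfolded protein response, none passed, 8 had an unadjusted p under 0.05 on the higher side (over all genes, 4.36%) and none on the lower side. The median was 0.16, and 22 of 31 were positive, against 52.6% of all genes. Without night library 2 and day library 1 the median was 0.25 with 31 of 31 positive, where the median of all genes was 0.03. Of these genes DESeq2 called Xbp1, Creld2 and Manf, and limma-voom these and 4 more, all higher at night.

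Xbp1, a transcription factor that switches on ER folding genes, had 218, 201, 233 and 337 CPM at J20+ night, against 123, 146, 107 and 129 CPM at J20+ day. Creld2, an ER protein induced by stress, had 56.1, 108, 68.7 and 110.5 CPM at J20+ night and 44.1, 47.0, 32.8 and 35.3 CPM at J20+ day. Manf, a secreted ER protein with neurotrophic activity, had 140.2, 221, 187 and 276 CPM at J20+ night and 106.5, 122, 91.1 and 98.5 CPM at J20+ day. In all of these genes each night library lay above each day library, and night library 4 was the highest. The log2 fold changes were 0.97 ± 0.19 for Xbp1 (edgeR adjusted p = 0.158, DESeq2 8.55e-04), 1.11 ± 0.23 for Creld2 (0.213 and 0.00886) and 0.98 ± 0.23 for Manf (0.371 and 0.0303). The chaperone genes Hyou1 (0.71 ± 0.26) and Hspa5, or BiP (0.42 ± 0.35), overlapped between times. Both had their lowest level of all 8 libraries in night library 2, at 146 and 692 CPM. The Creld2 start window (chr15:88819396-88819695, plus strand, RefSeq GRCm38.p6) held the ER stress element on the opposite strand, shown in capitals. It was present in 0.119% of all windows and 0.141% of those of tested genes. The Xbp1 window held none of the searched letters.
Creld2: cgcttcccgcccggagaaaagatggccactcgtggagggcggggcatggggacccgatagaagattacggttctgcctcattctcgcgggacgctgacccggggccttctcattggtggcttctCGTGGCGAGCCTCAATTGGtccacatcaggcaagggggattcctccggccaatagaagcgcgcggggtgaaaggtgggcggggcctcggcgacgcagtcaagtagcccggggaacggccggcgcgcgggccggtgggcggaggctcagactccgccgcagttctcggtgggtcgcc

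Cytosolic heat shock genes, which respond to heat and to protein damage, also had mostly positive values. Of 20 tested none was called by edgeR and 17 were positive, against 52.6% of all genes. On the higher side 8 had an unadjusted p under 0.05 (over all genes, 4.36%). DESeq2 called 1 of them and limma-voom 4, all higher at night. The median was 0.32. Without the 2 libraries it was 0.34 with 20 of 20 positive, where 8974 of 16034 genes were positive. Chordc1, an HSP90 co-chaperone gene, had 101.5, 121, 116 and 168 CPM at J20+ night against 78.0, 72.9, 66.3 and 81.2 CPM at J20+ day, without overlap. Its log2 fold change was 0.76 ± 0.14 (edgeR adjusted p = 0.125, DESeq2 8.82e-04). Hspa1a (1.05 ± 0.40) had 2.70, 9.61, 3.04 and 3.29 CPM at J20+ night and 3.33, 1.63, 1.82 and 2.21 CPM at J20+ day, with night library 2 far above the rest. Without the 2 libraries it was 0.68 ± 0.26. Reads of its near-identical copy Hspa1b could have been split between the genes.

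In the list of 8 genes of cold-induced RNA-binding proteins and temperature-linked splicing edgeR called none, DESeq2 called 1 lower and limma-voom 2 lower. The median was 0.23. Without the 2 libraries it was -0.13, and edgeR then called 1 member other than Cirbp. Cirbp, the gene of a cold-inducible RNA-binding protein, had lower levels at night. It had 44.2, 43.7, 33.9 and 23.5 CPM at J20+ night and 69.4, 73.4, 87.6 and 60.9 CPM at J20+ day, with each night library below each day library. The log2 fold change was -1.0 ± 0.20 (edgeR adjusted p = 0.205, DESeq2 0.00184). The splicing kinase gene Clk1 was at 0.81 ± 0.47 with night library 2, which had 446 CPM, and at -0.064 without it.

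**Figure D3:**
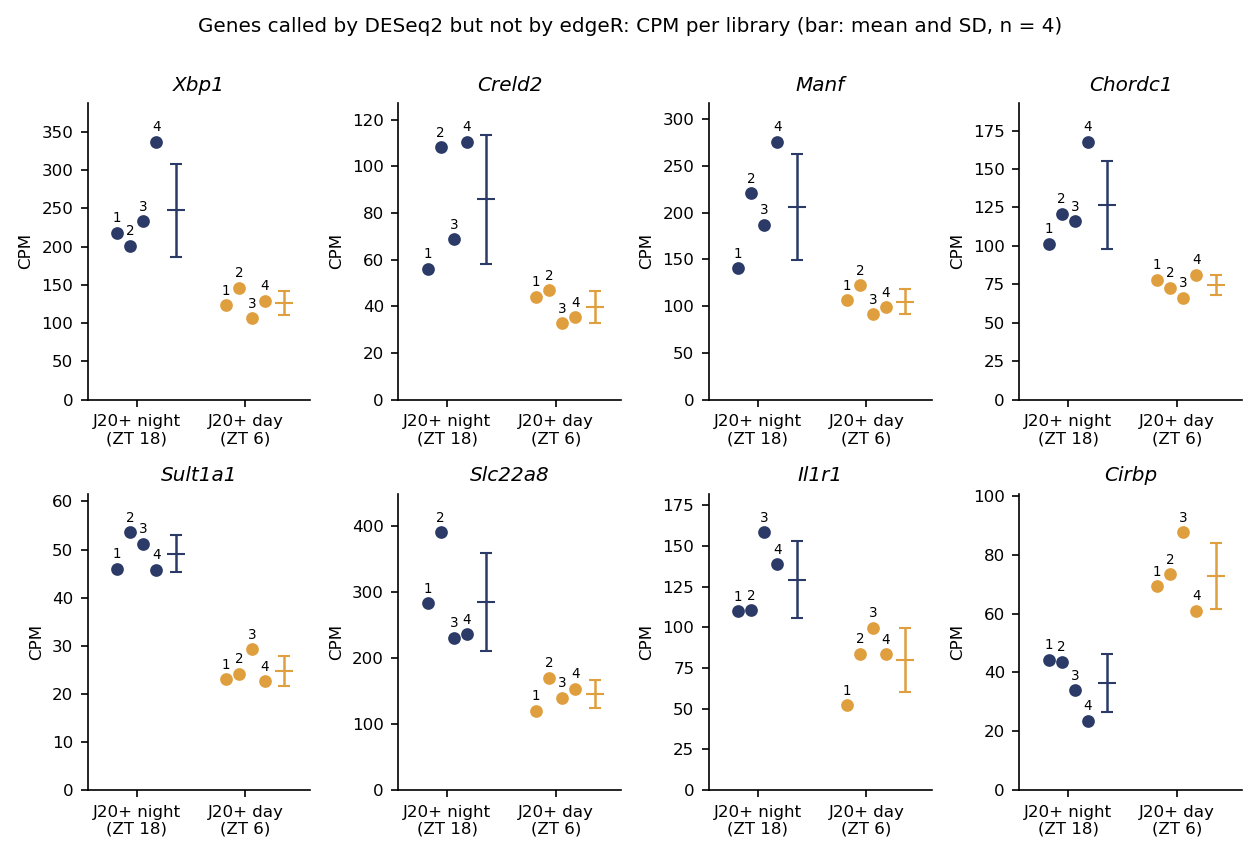
CPM per J20+ library of 8 genes that DESeq2 called and edgeR did not, night left of day, with library numbers, and the mean with its SD (n = 4). Each night library lay above each day library for all of them except Cirbp, for which each lay below.

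Genes of choroid plexus function were not called by edgeR. Of 30 genes of ion and water transport into CSF none passed, with a median of -0.01, among them the cotransporter Slc12a2 or NKCC1 (-0.07 ± 0.40) and the water channel Aqp1 (-0.42 ± 0.46). Night library 2 had by far the lowest level of both, 139 CPM for Aqp1 where the other 7 libraries had 504 to 1321 CPM, beside its low choroid marker sum. Trpv4, a cation channel that opens with warmth and osmotic change, had 575, 818, 644 and 689 CPM at J20+ night against 354, 554, 454 and 506 CPM at J20+ day. The groups did not overlap, and 0.55 ± 0.15 was not called by edgeR (adjusted p = 0.521), though it was by DESeq2 (0.0331). Of this list limma-voom called 1 gene higher at night, Trpv4, and 1 lower. Of 18 secreted CSF proteins none was called (median -0.02), and transthyretin (Ttr), a thyroid hormone carrier and the most typical secreted product, was at 0.14 ± 0.20. Of 18 junction genes edgeR called none, and Marveld3 (0.68 ± 0.17), which had no overlap, was called by limma-voom.

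Among 28 carrier genes, Slc22a8, an organic anion transporter that clears compounds from CSF, stood out. It had 283, 391, 231 and 236 CPM at J20+ night and 120.3, 170.1, 140.2 and 154 CPM at J20+ day. The lowest night library lay above the highest day library. The log2 fold change of 0.97 ± 0.17 just missed the threshold of edgeR (adjusted p = 0.0762) and passed that of DESeq2 (9.21e-05). The list as a whole had a median of -0.04, and no carrier was called by edgeR. Abcb1a (-1.61 ± 0.68) and the albumin and lipoprotein receptor gene Lrp2 (-2.66 ± 1.19), genes of amyloid-beta clearance too, were highest in day library 1, at 63.1 and 12.6 CPM. Without it their signs turned, to 0.015 and 0.39.

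Amyloid genes, of interest in J20 mice, were not called. Of 14 genes of APP and its secretases none was called (median -0.01), with App at -0.12 ± 0.34 and the beta-secretase gene Bace1 at 0.09 ± 0.19. Of 21 genes of amyloid-beta clearance none was called (median -0.04), with Apoe at 0.07 ± 0.15, Clu at -0.03 ± 0.22 and the insulin-degrading enzyme gene Ide at -0.33 ± 0.27.

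The interferon and complement lists moved when day library 1 and night library 2 were left out, while the inflammatory list (0.04 with, 0.06 without) and antigen presentation (0.07 and 0.07) had like medians. Of 32 interferon response genes 5 were positive, against 52.6% of all genes, and the median was -0.54. None was called, and 5 were below 0 at an unadjusted p under 0.05 (over all genes, 3.05%). Without day library 1 and night library 2 the median was 0.09 and 21 were positive, where 8974 of 16034 genes were positive. Oasl2, a gene interferon induces, was at -1.69 ± 0.69 with and -0.16 ± 0.42 without them. Complement genes had a median of -0.33 (15 tested, none called by edgeR) and -0.04 without the 2 libraries. C3, the central complement component, had 2.98, 5.597, 1.00 and 1.68 CPM at J20+ night and 112.5, 11.7, 2.06 and 2.81 CPM at J20+ day, with a log2 fold change of -3.53 ± 1.14, and -1.53 ± 0.82 without them. DESeq2 called it (0.0467) and limma-voom did not (0.569). Of the complement list limma-voom called 1 gene, Cfb, which was higher at night (0.0333). Day library 1 was by far the highest for C3. Day library 1 was also the one high in astrocyte, endothelium and fibroblast markers, and the part of these cells in the difference was not tested. Il1r1, the interleukin 1 receptor gene, did not follow this pattern. It had 109.9, 110.5, 159 and 139 CPM at J20+ night and 52.3, 83.7, 99.8 and 83.7 CPM at J20+ day, without overlap (0.70 ± 0.18, edgeR adjusted p = 0.520, DESeq2 0.0221).

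The night-day change of J20+ mice was then set against that of their wild-type littermates, to ask whether the genotype alters it. No gene passed the test of this difference with edgeR, and 1992 of 16065 genes (12.4%) had an unadjusted p under 0.05. Nr1d1 was at -2.13 ± 0.24 in J20+ and -1.51 ± 0.23 in wild-type mice, a difference of -0.62 ± 0.32 (adjusted p = 0.431). Cry1 differed by 0.35 ± 0.30, Nfil3 by 0.17 ± 0.36 and Dbp by -0.04 ± 0.37. Tsc22d3 was at 0.78 ± 0.13 in J20+ and 1.33 ± 0.13 in wild-type mice, where it was called too. The difference of -0.55 ± 0.18 did not pass (adjusted p = 0.359). Il1r1 was at 0.70 ± 0.18 in J20+ and -0.07 ± 0.18 in wild-type mice, a difference of 0.77 ± 0.26 that did not pass either (adjusted p = 0.359).

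Among the 10 genes with the smallest p in that test were 1500009C09Rik, Ppp1r3d, Necab2, Tafa5, Cntn3, Abcd2, Bex2, Lancl3 and Tceal3, each with an adjusted p of 0.359. All of these had a lower night-day change in J20+ than in wild-type mice, by -0.67 to -8.40. Necab2, the gene of a neuronal calcium-binding protein, was at -0.20 ± 0.17 in J20+ and 1.01 ± 0.17 in wild-type mice, and Cntn3, a neuronal contactin, at -0.79 ± 0.35 in J20+ and 1.34 ± 0.36 in wild-type mice. Neuron markers summed to 32.5 to 423 CPM in J20+ night and 41.7 to 936 CPM in J20+ day libraries, against 171 to 1321 CPM in wild-type night and 39.9 to 225 CPM in wild-type day libraries. Choroid epithelium markers summed to 24490 to 36200 CPM in wild-type night and 43110 to 53010 CPM in wild-type day libraries. The trend of log2 counts with GC content was again taken relative to each gene's mean over the aged libraries. It was 0.15 to 0.41 per 10 percentage points in wild-type night and -0.30 to 0.05 in wild-type day libraries. The part of these in the wild-type night-day values was not tested. Without night library 2 of the J20+ mice the test called 3409 genes, and with limma-voom 5382 and DESeq2 9. It called 0 without night library 2 and day library 1 together, and 0 with the score of neuron, oligodendrocyte and astrocyte markers as a covariate. A p that misses the threshold does not show that the genotypes act alike.

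Young wild-type mice gave a list of night-day genes from libraries that the J20+ comparison does not share. In young mice 40 genes were called by the same test. In J20+ mice 39 of them had the same sign, 20 of the 21 that were higher at night and all 19 that were lower, against 60.6% of the 14713 genes tested in both cohorts. The exception was Gkn3, with 0.396 to 1.02 CPM at J20+ night and 0.10 to 1.95 CPM at J20+ day. Without night library 2 and day library 1 the count was again 39, and then the exception was Cdh18 (0.08). Across the 40 genes Pearson's r between the log2 fold changes was 0.869, and over all 14713 genes it was 0.163, both as descriptions of genes that are not independent. The median ratio of the J20+ to the young change was 0.711. The 40 genes were chosen by their values in young mice, so these figures describe them and test nothing.

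Nr1d1, Cry1 and Nfil3 were among the 4 genes called in both cohorts. Cry1 was at 1.34 ± 0.22 in J20+ and 1.17 ± 0.09 in young mice, and Nfil3 at 1.67 ± 0.26 in J20+ and 1.70 ± 0.16 in young mice. Values lay further apart for some other clock genes. Arntl was at 1.5 ± 0.37 in J20+ and 2.50 ± 0.18 in young mice, a difference of -1.05 ± 0.43. Nr1d1 was at -2.13 ± 0.24 in J20+ and -3.02 ± 0.24 in young mice, a difference of 0.86 ± 0.34. Ciart was at -0.79 ± 0.47 in J20+ and -1.98 ± 0.35 in young mice, a difference of 1.2 ± 0.61. Per2 went the other way, with 1.61 ± 0.45 in J20+ and 0.37 ± 0.18 in young mice, but only 0.66 ± 0.28 in J20+ mice without the 2 libraries. None of these differences passed (adjusted p = 1.0 each).

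**Figure D4:**
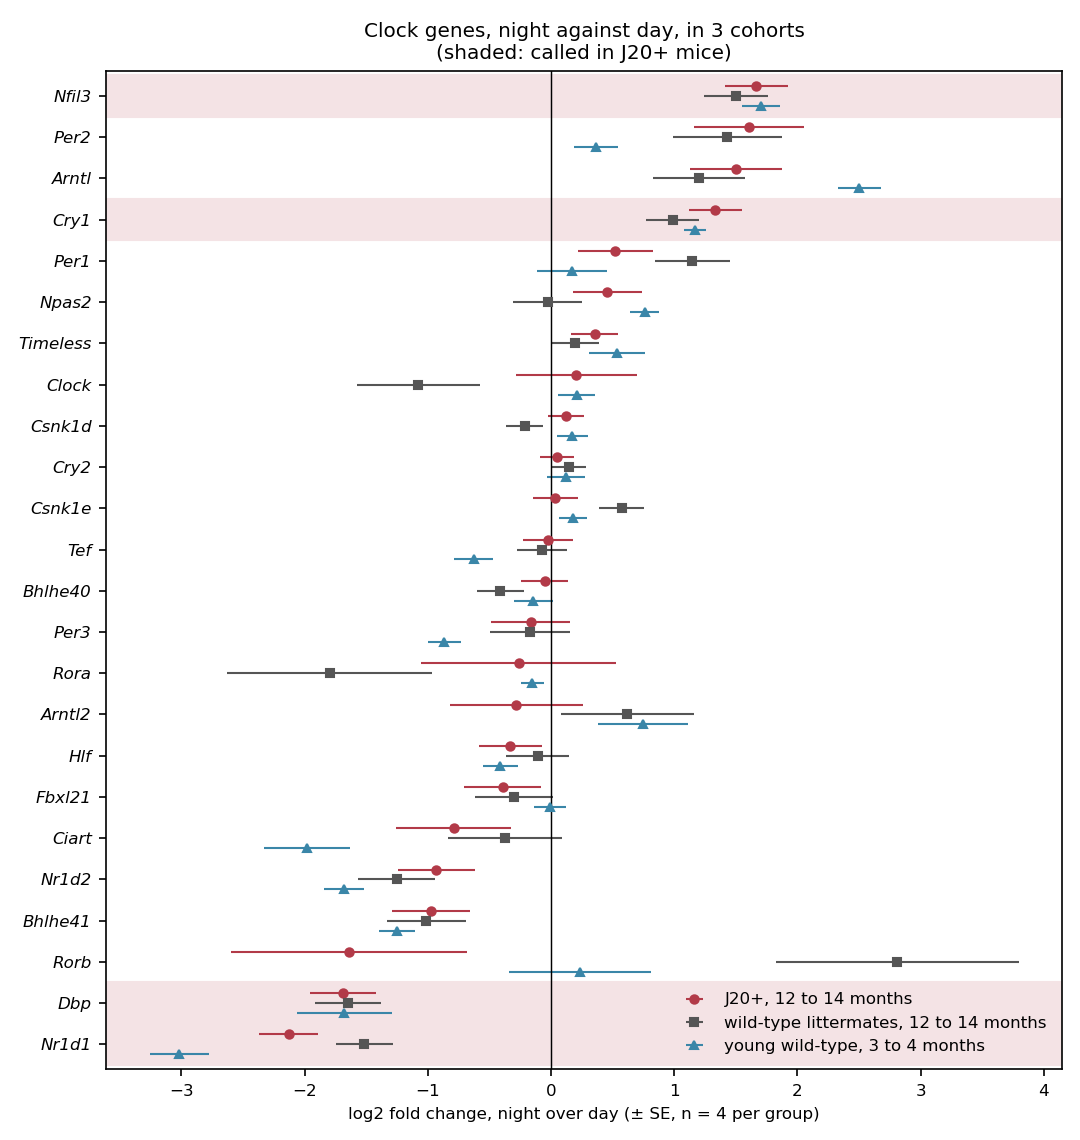
Log2 fold change of night over day (± SE, n = 4 per group) of 24 of the clock genes in J20+ mice (circles), aged wild-type littermates (squares) and young wild-type mice (triangles). Shading marks 4 genes called in J20+ mice, and Cry1 had 1.34, 0.99 and 1.17 in these cohorts.

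Over all genes, 570 of 16590 (3.44%) had an unadjusted p under 0.05 for a difference between the J20+ and the young night-day change, and none passed with edgeR, DESeq2 or limma-voom. Age, genotype and batch differ together here and cannot be told apart. The 10 genes with the smallest p were Rps6ka1, C1qb, Slc13a3, Ngfr, Itgal, Slc15a3, Pik3ap1, Pgam2, Adgre1 and Calcoco2. C1qb, Itgal and Adgre1 are genes of macrophages and other leukocytes. C1qb was at -0.54 ± 0.31 in J20+ and 1.43 ± 0.41 in young mice. Macrophage and microglia markers summed to 129 to 180.0 CPM in J20+ night and 152 to 268 CPM in J20+ day libraries, against 102 to 562 CPM in young night and 80.7 to 144 CPM in young day libraries. Only young night library 4 was at 562 CPM, and its part in these values was not tested. Ngfr, the gene of the p75 neurotrophin receptor, had 16.1, 7.07, 16.6 and 11.5 CPM at J20+ night, against 22.3, 33.6, 36.4 and 22.8 CPM at J20+ day. All night libraries lay below the day libraries, and its -1.16 ± 0.25 did not pass with edgeR (adjusted p = 0.256) and passed with DESeq2 (0.00158). It was at -1.17 ± 0.25 in aged wild-type mice and 0.31 ± 0.31 in young mice.

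**Figure D5:**
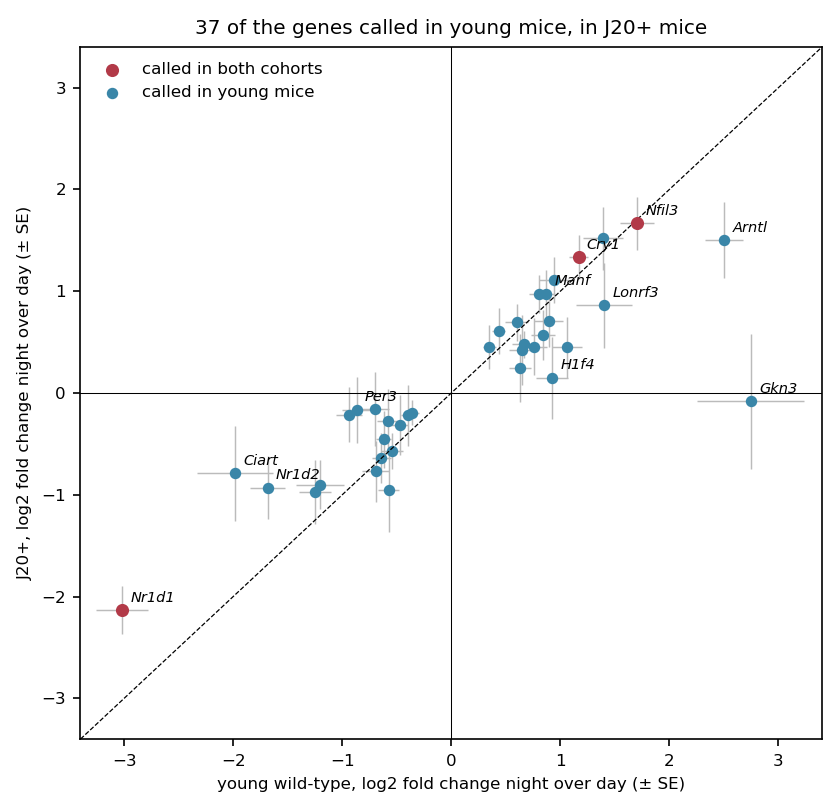
Log2 fold change of night over day (± SE) in J20+ mice (vertical axis) against young wild-type mice (horizontal axis) for 37 of the 40 genes called in young mice. Of those plotted 36 have the same sign in both, 3 are called in both, and the dashed line marks equal change.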

How the data were processed

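RNA of 28 choroid plexus libraries was sequenced, poly(A)-selected and stranded, per the labels' protocols. The deposited tables hold raw read counts per mouse gene. Per the submitters' processing notes, the tools included HISAT2 2.2.1 and featureCounts 2.0.1 beside cutadapt, FastQC 0.11.8, DESeq2 and Picard 2.18.2, and the build was mm10. The strand setting, the handling of multi-mapping reads and the annotation were not given in the sources used here. Depth was 15.5M to 43.9M counts in the 8 J20+ libraries, and sampling error is smallest for genes with many counts.

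Of 27179 gene IDs, 25275 (93.0%) matched RefSeq genes of GRCm38.p6. Counts were fitted with edgeR 4.0.16 (R 4.3.3): genes kept by its expression filter, TMM scaling, robust quasi-likelihood fit of group means over all 16 aged libraries, or all 12 young ones, which include a sleep-disrupted group. Differences between night-day changes were contrasts over the 16 aged or all 28 libraries. Calls had a Benjamini-Hochberg adjusted p under 0.05 over all genes, two-sided. CPM are counts scaled by TMM library sizes. SE was taken as log2 fold change over the root of the F statistic. DESeq2 1.42.0 and limma 3.58.1 were alternatives. Only the edgeR test of J20+ night against day was run on simulated data, which held no library that stands apart.

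Groups came from the labels. Replicate numbers follow the order of the records and name mice only. The labels do not tie libraries to litters or days, so p-values measure the spread between these libraries. No pair of J20+ libraries agreed within sampling noise. Named genes were the called genes with at least a mean log2 CPM of 1 and no overlap (up to 10 a direction), all tested clock genes, up to 3 of smallest p in each list described, the 10 of smallest p where a comparison had no call, App and Zbtb20. Some genes that the rule names are not reported here, though they stay in the counts of calls. Other genes, such as Aqp1, Hspa5 or Fkbp5, were chosen after their values were seen. Members and the 38 gene lists were chosen with earlier results of these data known. The lists held 711 entries, of which 710 matched. A direction is counted as reversed for a gene that was not called only where the log2 fold change was larger than its SE.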

Additional observations from a re-analysis of the deposited data

Results flagged for a closer look

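In groups of 4 libraries, 17 of 108 examined had a highest or lowest library whose gap to the next, divided by the group's range, was above Dixon's critical value. Chance gives this in about 1 in 20 groups, or 5.4 of 108, and the groups share libraries and are not independent. Of the 17, 9 were in J20+ night and 8 in J20+ day.

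In J20+ night, library 2 was the highest for Per1 (167.7 CPM), Per2 (356.5 CPM) and Csnk1e (35.68 CPM). It also had the lowest choroid marker sum (24000 CPM). Its sums of neuron (423.3 CPM), ependyma (236.4 CPM), lymphocyte and neutrophil (14.64 CPM) and erythroid markers (10.29 CPM) were the highest. Its trend with GC content, relative to the mean of the aged libraries, was the steepest (0.4725).

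In J20+ day, library 1 was the highest for C3 (112.5 CPM) and the cystine transporter gene Slc7a11 (278.6 CPM). It was the highest too for the marker sums of neurons (936.4 CPM), astrocytes (2494 CPM), ependyma (293.2 CPM), endothelium (473.1 CPM) and fibroblasts (756.4 CPM). Day library 3 had the deepest sequencing, 43.89M counts.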

How the results depend on the processing

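The night-day comparison of J20+ mice gave 7 calls. Counts were 2 with RLE scaling, 3 with upper-quartile scaling, 79 with DESeq2, 274 with limma-voom, 4 with no filter, 3 with a filter of 10 CPM in 4 libraries, 10 with a neural marker score and 2 with a stromal marker score as covariate, 1 in a fit of the 8 J20+ libraries alone, 5 without J20+ day library 1 and J20+ night library 2, and 2 to 5 when a library was left out. Clock genes called, 5 of 26, were 2 with RLE, 3 with upper-quartile scaling, 8 with limma-voom, 3 with no filter and 3 with the 10 CPM filter. They were 2 with the stromal score, 3 without the 2 libraries and 2 to 4 when a library was left out. In the 8 libraries alone 1 was called, and it was not Nr1d1. With a GC content correction 4 genes were called, and 3 clock genes in the 8 libraries alone without those 2; both alternatives were chosen after seeing the data. The difference from wild-type littermates gave 0 calls, 9 with DESeq2, 5382 with limma-voom and 0 to 3409 when libraries were left out, where 3409 came without J20+ night library 2. The difference from young mice gave 0 calls in every alternative run. Over all alternatives the median of all genes stayed between -0.07 and 0.06. The cause was not tested for these changes.

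Signs reversed in genes that were not called. With limma-voom Rorb was at 0.23, Ece2 at 0.073, Ptgs2 at 0.066, H2-D1 at 0.020 and Dnah5 at 0.58. With the stromal score Serpinf1 was at 0.056, Ednra at 0.071, Bace2 at 0.027, Lrp2 at 0.18, Ece2 at 0.17 and Dnah5 at 0.42. In the 8 libraries alone without the 2 libraries Per1 was at -0.040, Vegfa at -0.077, Ednra at 0.029 and Ece2 at 0.19. When libraries were left out, Clk1 ran from -0.064 to 1.08, Serpinf1 from -0.91 to 0.14, Vegfa from -0.032 to 0.59, Abcb1a from -1.997 to 0.015, Vipr2 from -1.60 to 0.0007, Ednra from -0.67 to 0.16, Bace2 from -1.26 to 0.16, Lrp2 from -3.92 to 0.39, Ece2 from -1.42 to 0.32, H2-D1 from -0.70 to 0.0059 and Dnah5 from -3.72 to 0.32.

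No paired analysis was possible because the replicate numbers only follow the order of the records. Genes near 1 CPM, such as Gkn3, rest on few counts and their values are imprecise at this depth.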

Other observations

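Other gene groups were described in the same fit, and edgeR called no member of any of them. Of 58 ribosomal protein genes 47 were positive (median log2 fold change 0.18) and of 51 respiratory chain genes 42 (median 0.18), against 52.6% of all genes. The medians were 0.09 and 0.09 without J20+ night library 2 and J20+ day library 1. Genes of lipid and sterol synthesis had a median of 0.10 (29 tested). Without the 2 libraries it was 0.25 with 27 positive, where 8974 of 16034 genes were positive. Fdps, an enzyme gene of sterol synthesis, did not overlap between times (0.46 ± 0.14) and was called by limma-voom. Fat oxidation genes had a median of -0.14 (22 tested), with the fatty acid binding protein gene Fabp3 at -0.49 ± 0.24. Without the 2 libraries the median of this list was 0.004 with 11 positive. Cilia genes had a median of -0.05 (29 tested, 9 positive), and Hydin, needed for ciliary beating, did not overlap at -0.74 ± 0.26. Without the 2 libraries the cilia median was -0.12 with 4 positive. Limma-voom called 1 cilia gene, Tekt4, lower at night (adjusted p = 0.0071).

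Stress and signalling lists were near 0. Medians were 0.03 for the integrated stress response (15 tested), 0.04 for immediate early genes (25), -0.12 for hormone receptors (14), 0.04 for inflammatory genes (21), 0.07 for antigen presentation (16) and -0.04 for the NRF2 oxidative response (18). Without the 2 libraries 2 of these medians had the other sign, at 0.08 for hormone receptors and 0.07 for the NRF2 response. Slc7a11, of the integrated stress list, was at -1.88 ± 0.60, and at -0.41 without the 2 libraries.

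Outside the lists, genes chosen after their values were seen had no overlap between times. EdgeR did not call them on all libraries, while DESeq2 and limma-voom called each of them, and edgeR called Gm19522 without the 2 libraries. Osgin1, an oxidative stress gene, had 13.8, 18.1, 16.3 and 16.6 CPM at J20+ night and 8.08, 7.2, 10.6 and 10.1 CPM at J20+ day (1.8-fold higher at night). Unc13b, of vesicle priming, had 186, 262, 232 and 254 CPM at J20+ night against 100.5, 129, 143 and 150.4 CPM at J20+ day. Gm19522 had 31.2, 14.1, 32.3 and 45.1 CPM at J20+ night against 7.0, 9.98, 11.9 and 13.9 CPM at J20+ day, with the lowest night library just above the highest day library. It was at 1.52 ± 0.31 in J20+ and 1.39 ± 0.18 in young mice, where it was called.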
